A study of Mus musculus with 8 samples.

Results

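The genes that make, sense, take up and export cholesterol were followed through the sciatic nerve RNA of mice that carried a P0 nonsense mutation, a neuregulin transgene, both or neither. The list held 31 genes, taken by symbol from a table of 23356 genes, and all 31 were found, 30 under their own symbol and 1 (Msmo1) under its older symbol Sc4mol. They fall into 18 enzymes of synthesis, 4 genes of sterol sensing, 4 of uptake and movement inside the cell, and 5 of export with its oxysterol receptors. All 31 had a mean of at least 1 FPKM (fragments scaled to gene length and to library size) and entered the tests, as did 12530 genes of the table.

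Sciatic nerves were sampled at postnatal day 30 from F1 mice of C57BL/6 and FVB/N, and RNA was sequenced after poly A selection in 8 libraries, 2 for each of 4 genotypes. The WT group carried neither allele. Q215X/+ carried 1 copy of the Q215X allele of P0, the main structural protein of peripheral myelin. HA-NRG1 type III/+ carried a transgene, HA-NRG1 in the labels, that encodes type III neuregulin 1, a growth factor that axons present to Schwann cells. HA-NRG1 type III/+:Q215X/+ carried both and is called the combined genotype. Strain, age and tissue were shared by all groups, WT included. The promoter and lines of the transgene and the animals behind each library were not stated in the labels. The p-values therefore reflect the scatter of these 8 libraries, and it may be technical if libraries of a genotype shared an animal. That cannot hold for HA-NRG1 type III/+, whose 2 libraries read as male and female by the sex-linked genes given below.

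Schwann cells wrap axons in myelin, a membrane rich in cholesterol, and make most of that cholesterol themselves. Synthesis starts from acetyl-CoA, passes through mevalonate and the isoprenoids to squalene, closes the ring to lanosterol and ends with a series of sterol edits. When sterol in the endoplasmic reticulum is low, SCAP carries the factor SREBP2 to the Golgi for cleavage, and the cleaved factor turns on the enzyme genes and Insig1, whose product holds SCAP back. Surplus sterol is turned into oxysterols, which activate the LXR receptors and through them the exporters Abca1 and Abcg1 and the carrier Apoe.

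Promoter stretches of 4 genes whose libraries with the mutation all lay below those without it are shown first, to put letters to the regulation just described. They are RefSeq sequences of the build GRCm38.p6, read in the direction of the gene and ending at or before its start, with capitals marking the sterol element TCACNCCAC and the CCAAT box (ATTGG on the other strand). Hmgcs1 (chr13:119690101-119690350, + strand) makes HMG-CoA, Sc5d (chr9:42264301-42264550, - strand) and Ebp (chrX:8193513-8193762, - strand) edit the sterol ring late in the pathway, and Insig1 (chr5:28071162-28071362, + strand) senses sterol.
Hmgcs1: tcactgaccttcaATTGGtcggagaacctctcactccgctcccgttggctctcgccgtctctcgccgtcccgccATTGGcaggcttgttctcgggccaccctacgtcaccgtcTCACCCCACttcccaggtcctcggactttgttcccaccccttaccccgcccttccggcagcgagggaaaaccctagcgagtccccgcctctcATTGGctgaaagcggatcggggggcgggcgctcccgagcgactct
Sc5d: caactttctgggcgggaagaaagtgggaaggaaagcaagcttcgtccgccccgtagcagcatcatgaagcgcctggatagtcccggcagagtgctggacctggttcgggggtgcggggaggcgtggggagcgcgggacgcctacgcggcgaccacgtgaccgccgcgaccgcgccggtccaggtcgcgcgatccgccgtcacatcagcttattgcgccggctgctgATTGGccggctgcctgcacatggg
Ebp: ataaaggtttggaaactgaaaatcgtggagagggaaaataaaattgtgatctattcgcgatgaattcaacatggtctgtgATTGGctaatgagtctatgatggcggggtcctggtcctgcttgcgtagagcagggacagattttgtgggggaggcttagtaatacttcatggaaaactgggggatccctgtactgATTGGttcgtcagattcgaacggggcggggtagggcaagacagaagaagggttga
Insig1: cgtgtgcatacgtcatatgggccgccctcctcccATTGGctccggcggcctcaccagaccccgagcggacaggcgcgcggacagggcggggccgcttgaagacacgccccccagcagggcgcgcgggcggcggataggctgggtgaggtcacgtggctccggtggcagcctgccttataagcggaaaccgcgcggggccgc
The Hmgcs1 stretch held 1 sterol element, 137 bases before the start, and 3 CCAAT boxes. Sc5d held 1 CCAAT box, Ebp 2 and Insig1 1, and no match of one motif overlapped another.

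Of the 31 genes, 25 had a promoter entry, and the 250 bases before each start were searched on both strands. The CCAAT box lay in 14 of 15 enzyme genes (93.3%), all but Acat2, against 37.5% of the 27025 genes with an entry. It lay in 3 of 4 sensing genes (not Scap), in Npc2 of the uptake genes, and in 0 of 4 export genes (Abca1, Apoe, Nr1h2, Nr1h3). The letters GGGCGG, the GC box, lay in 14 of 15 enzyme genes, all but Pmvk, against 35.4% of genes, and in 4 of 4 sensing, 2 of 2 uptake and 1 of 4 export genes. Only Hmgcs1 of the 25 held TCACNCCAC, which was present in 1.22% of genes. These matches describe letters in a window and are not binding sites. The shares of all genes take in every gene with an entry, whatever its level in nerve, and are not matched to the members in expression.

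Sets 0 and 1 below are the libraries whose columns end in 0 and 1, and a pair of values gives set 0 first. The depth of the libraries is unknown, because the values are FPKM. Median differences of all genes from WT of the same set were between −0.01 and 0.00 on the log2 scale. Schwann cell markers were abundant: Pmp22, a peripheral myelin protein, stood at 16569 to 20537 FPKM and Prx at 1194 to 1485 FPKM. By Xist and the Y-linked Ddx3y, WT and the combined genotype were female in both sets, Q215X/+ was male in both, and the transgene alone was male in set 0 and female in set 1. Sex therefore differed between the groups in Q215X/+ against WT and in the combined genotype against Q215X/+, where sex and genotype cannot be told apart. The interaction test given further on draws on the Q215X/+ and WT libraries, so sex enters it as well. The mutation and the transgene over both backgrounds are not balanced for sex either. HA-NRG1 type III/+ of set 0 was male, so its set 0 comparisons with WT and with the combined genotype set male against female. The comparison of the combined genotype with WT, and that with HA-NRG1 type III/+ within set 1, set female against female. One Q215X/+ library, of set 1, held muscle RNA, with skeletal muscle markers summing to 874.2 FPKM against 2.91 to 68.7 in the other 7 libraries. The next highest sums were those of WT, at 68.7 in set 0 and 19.7 in set 1. Without the Q215X/+ library of set 1 the enzymes' medians given further on were −0.18 in Q215X/+ against WT (−0.19 with it) and −0.11 in the combined genotype against Q215X/+ (−0.10 with it).

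In the WT nerve the enzymes spanned a wide range of levels. Hmgcs1 was highest, at 935 and 844 FPKM, followed by Msmo1, a sterol demethylase, at 303 and 327 and by Fdps, which builds farnesyl diphosphate, at 304 and 291. The ranges of Msmo1 and Fdps overlapped, so their order is not resolved, and the same held for Sc5d (131 and 118) and Cyp51, the lanosterol demethylase (134 and 114). Levels of 32.8 ± 5.16 FPKM (SD, n = 2) for Hsd17b7, which reduces a sterol ketone, and 25.2 ± 1.45 for Ebp closed the list. Outside synthesis, Apoe, the lipoprotein carrier, reached 879.5 and 1102.5 FPKM, while the exporter Abca1 stood at 7.10 and 4.81.

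**Figure D1:**
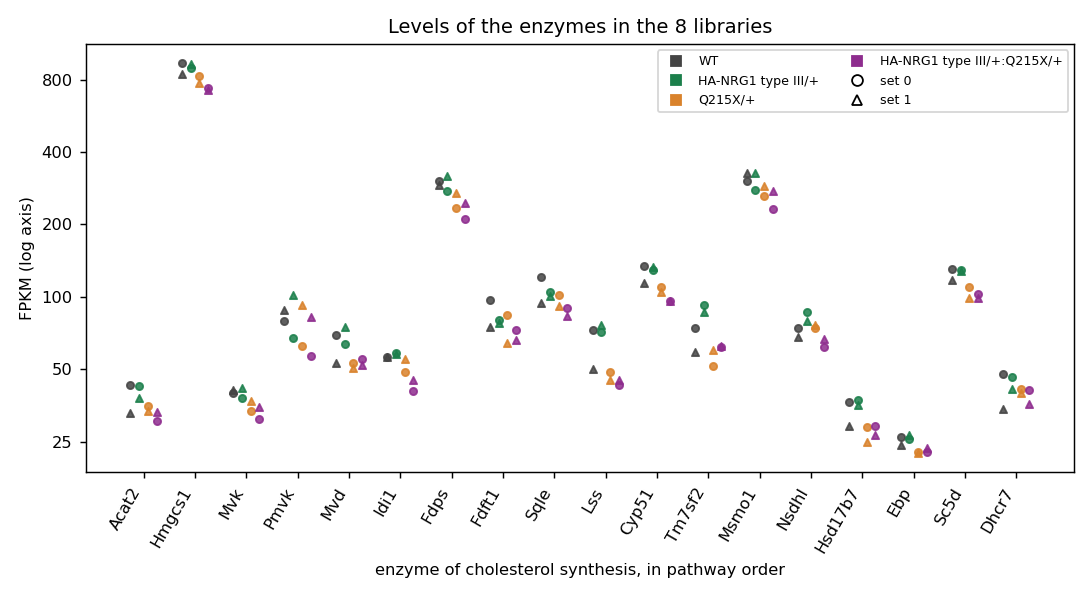
FPKM (log axis) of the 18 synthesis enzymes in pathway order, one point per library, coloured by genotype, with circles for set 0 and triangles for set 1. Hmgcs1 lies at 722 to 935 FPKM, above all other enzymes, and the purple point of the combined genotype is the lowest of set 0 for 15 enzymes and of set 1 for 9.

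On the wild-type background, 17 of 18 enzymes had a lower mean in Q215X/+ than in WT, by a median of −0.19 log2 units of FPKM + 1. Over all 12530 genes, 52.4% lay below 0 and the median was −0.01. The enzyme with the largest difference was Lss, which closes the ring of lanosterol, and the exception was Nsdhl, a sterol dehydrogenase, at a log2 difference of 0.08. The 2 Q215X/+ libraries were both below both WT libraries for 11 enzymes (Hmgcs1, Mvk, Mvd, Idi1, Fdps, Lss, Cyp51, Msmo1, Hsd17b7, Ebp and Sc5d) and for Insig1, a pattern that 10.2% of all genes showed. Within sets, 13 of 18 enzymes were below WT in both, against 26.7% of all genes, with medians of −0.25 in set 0 and −0.11 in set 1.

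None of these differences passed the test. limma called 0 of 31 members, without and with the set as a replicate block, as it called 0.00798% of all genes in either fit. Sc5d alone of the members was at an unadjusted p under 0.05, among 255 of all genes, and in the blocked fit 10 members and 929 genes were at that level. Sc5d stood at 130.9 and 118 FPKM in WT and at 109.5 and 98.5 with the mutation, a log2 difference of −0.26 (SE 0.10). In the same nerves 6 of 6 endothelial markers were lower than in WT (median −0.23) and 4 of 5 red blood cell markers higher, none of them called, and their part in the enzymes' difference was not tested. The size of the enzymes' median rests on the WT libraries, which differ: it was −0.09 without WT of set 0 and −0.29 without WT of set 1. WT of set 0 was the highest of its set for 14 of 18 enzymes and WT of set 1 for 0.

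On the transgenic background the enzymes' median was further from 0, but sex was not balanced between the backgrounds. No member passed the interaction test between backgrounds given further on. All 18 had a lower mean in the combined genotype than in HA-NRG1 type III/+, with a median of −0.34 log2 units against −0.01 over all genes, and all 18 did so in set 0 (median −0.31) and in set 1 (median −0.32), as did 29% of all genes. For 17 of 18 enzymes, all but Pmvk, both libraries with the mutation were below both without it, against 11.1% of all genes. Insig1 and Stard4 showed this too, and Lrp1 was the only member with both libraries higher, as were 8.19% of all genes. limma called 0 of 31 members and 0% of all genes in this comparison in both fits. An unadjusted p under 0.05 was reached by 11 members (10 enzymes and Insig1) and by 161 of all genes, and in the blocked fit by 16 members and 568 genes.

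**Figure D2:**
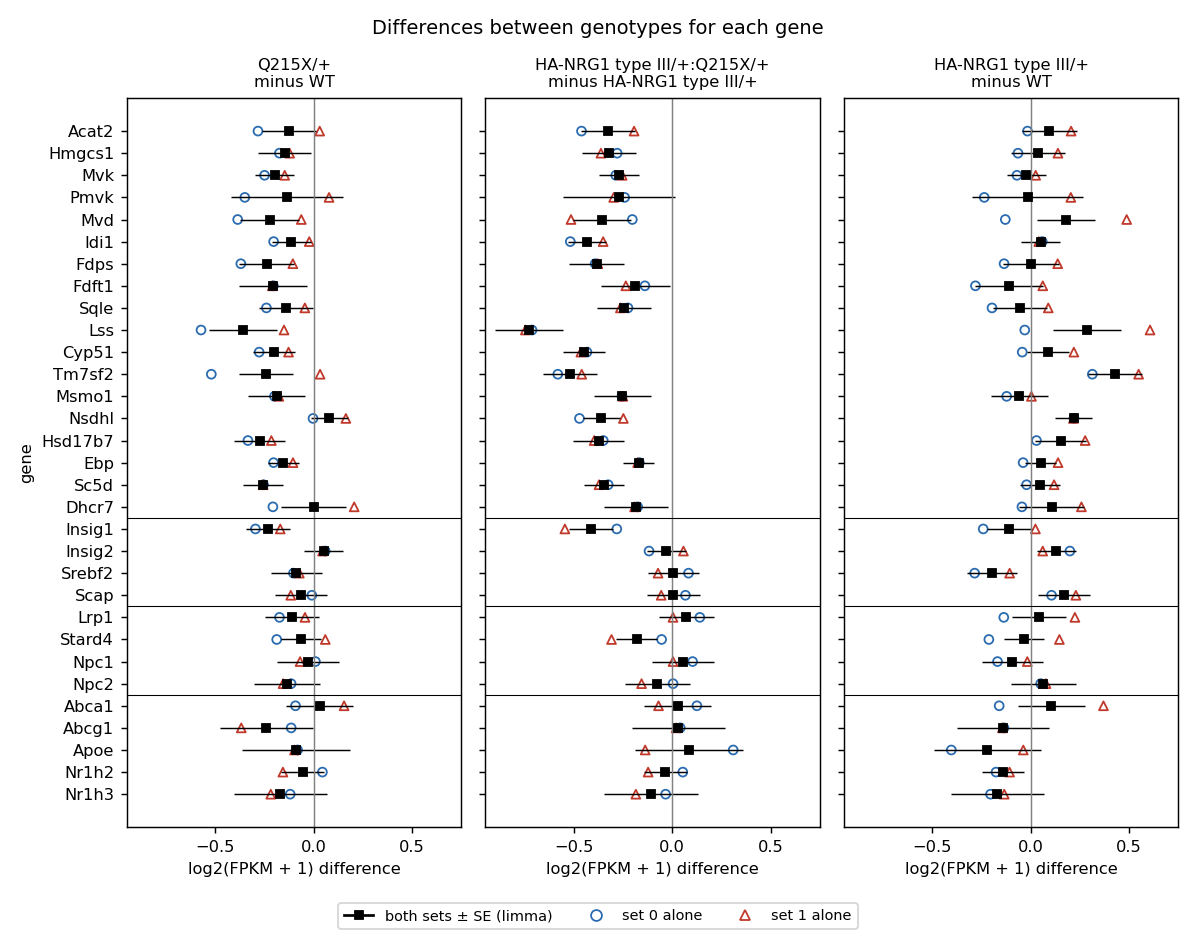
Differences in log2(FPKM + 1) for the 31 genes in 3 comparisons. Black squares with bars give both sets ± SE from limma, circles set 0 alone and triangles set 1 alone, and lines part the 4 roles. The enzymes lie at −0.73 to −0.17 in the middle panel, while the export genes there lie between −0.11 and 0.09.

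Lss had the largest difference of the list. It lies at chr10:76531565-76557139. It stood at 72.9 and 50.0 FPKM in WT, 48.7 and 44.9 with the mutation alone, 71.3 and 76.6 with the transgene alone, and 43.1 and 45.3 with both. The groups with the mutation lay below those without it and did not overlap them, but WT of set 1 was only slightly above. In the combined genotype against HA-NRG1 type III/+ the log2 difference was −0.73 (SE 0.17, limma adjusted p = 1).

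Idi1 makes the isoprenoid isomer that starts chain growth and lies at chr13:8885606-8892396. It stood at 56.2 and 56.0 FPKM in WT, 48.6 and 55.1 with the mutation alone, 58.5 and 57.7 with the transgene alone, and 40.6 and 45.0 with both. Both libraries of the combined genotype were below the other 6, and Q215X/+ of set 1 was close to WT. Against HA-NRG1 type III/+ the log2 difference was −0.43 (SE 0.10, limma adjusted p = 1, and 0.597 with the block).

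Cyp51, at chr5:4080674-4104697, stood at 133.9 and 114 FPKM in WT and at 110.3 and 104 with the mutation alone. It was at 129.9 and 133 with the transgene alone and at 95.9 and 96.2 with both, below all other libraries. The log2 difference of these last 2 groups was −0.45 (SE 0.11, limma adjusted p = 1). Nsdhl, at chrX:72918521-72958528, departed from the other enzymes. Its values were 74.1 and 68.3 FPKM in WT, 73.9 and 76.6 with the mutation alone, 86.4 and 79.5 with the transgene alone, and 62.0 and 66.8 with both. WT and Q215X/+ overlapped, HA-NRG1 type III/+ lay above both and the combined genotype below them. The log2 difference of the combined genotype from HA-NRG1 type III/+ was −0.36 (SE 0.09, limma adjusted p = 1).

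The early mevalonate enzymes, Pmvk excepted, lay apart in the same comparison. Hmgcs1 stood at 911 ± 24.7 FPKM with the transgene alone and 729 ± 9.75 with both alleles (SD, n = 2), beside 889.5 ± 64.5 in WT and 802 ± 37.8 with the mutation alone. Acat2, which joins the first acetyl units, stood at 40.2 ± 3.17 and 31.8 ± 1.77 FPKM in the same 2 transgenic groups, and the kinase Mvk at 39.8 ± 2.66 and 32.8 ± 2.74. For Mvd, the decarboxylase, the values were 69.0 ± 7.97 and 53.4 ± 2.10 FPKM. Pmvk, the next kinase, differed between the sets: every set 1 library, at 82.2 to 101 FPKM, lay above every set 0 library, at 56.9 to 79.7. Sets lay fully apart for 32.4% of all genes and for 6 of 31 members. Within each set Pmvk was lowest in the combined genotype, by −0.24 and −0.30 log2 units against HA-NRG1 type III/+.

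Squalene and sterol steps were alike in direction. Fdps stood at 298 ± 30.2 FPKM with the transgene alone and 228 ± 24.7 with both alleles, Fdft1, which makes squalene, at 78.9 ± 1.54 and 69.3 ± 4.68, and Sqle, which oxidises it, at 103 ± 3.18 and 86.5 ± 4.34. Msmo1 stood at 303 ± 35.5 and 254 ± 30.3 FPKM. Tm7sf2, a sterol reductase, had the widest step of this group after Lss, with 92.8 and 86.7 FPKM in HA-NRG1 type III/+ against 61.7 and 62.7 in the combined genotype. Its WT libraries, at 74.5 and 59.0, lay between them in set 0 and below both in set 1. Narrower steps were seen for Ebp, at 26.1 ± 0.86 and 23.1 ± 0.66 FPKM, and for Dhcr7, the last reductase, at 43.7 ± 3.59 and 38.4 ± 3.47. Hsd17b7 stood at 36.4 ± 1.19 and 27.8 ± 1.58 FPKM and Sc5d at 128 ± 0.62 and 101 ± 2.81.

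Over both backgrounds, 18 of 18 enzymes were lower in the 4 libraries with the mutation than in the 4 without, with a median log2 difference of −0.24 against −0.01 for all genes. For 9 of them (Hmgcs1, Mvk, Idi1, Fdps, Lss, Cyp51, Hsd17b7, Ebp and Sc5d) and for Insig1, all 4 libraries with the mutation lay below all 4 without, which 0.694% of all genes did. Sex was not balanced between these libraries, since Q215X/+ read as male in both sets and WT as female. The part of sex in this pattern was not tested. limma called 0 of 31 members, as it called 0.00798% of all genes and 0.016% with the block. At an unadjusted p under 0.05 were 12 members and 258 of all genes, or 20 and 848 in the blocked fit. The enzymes' median ranged from −0.29 to −0.23 when each of the 8 libraries was left out in turn.

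**Figure D3:**
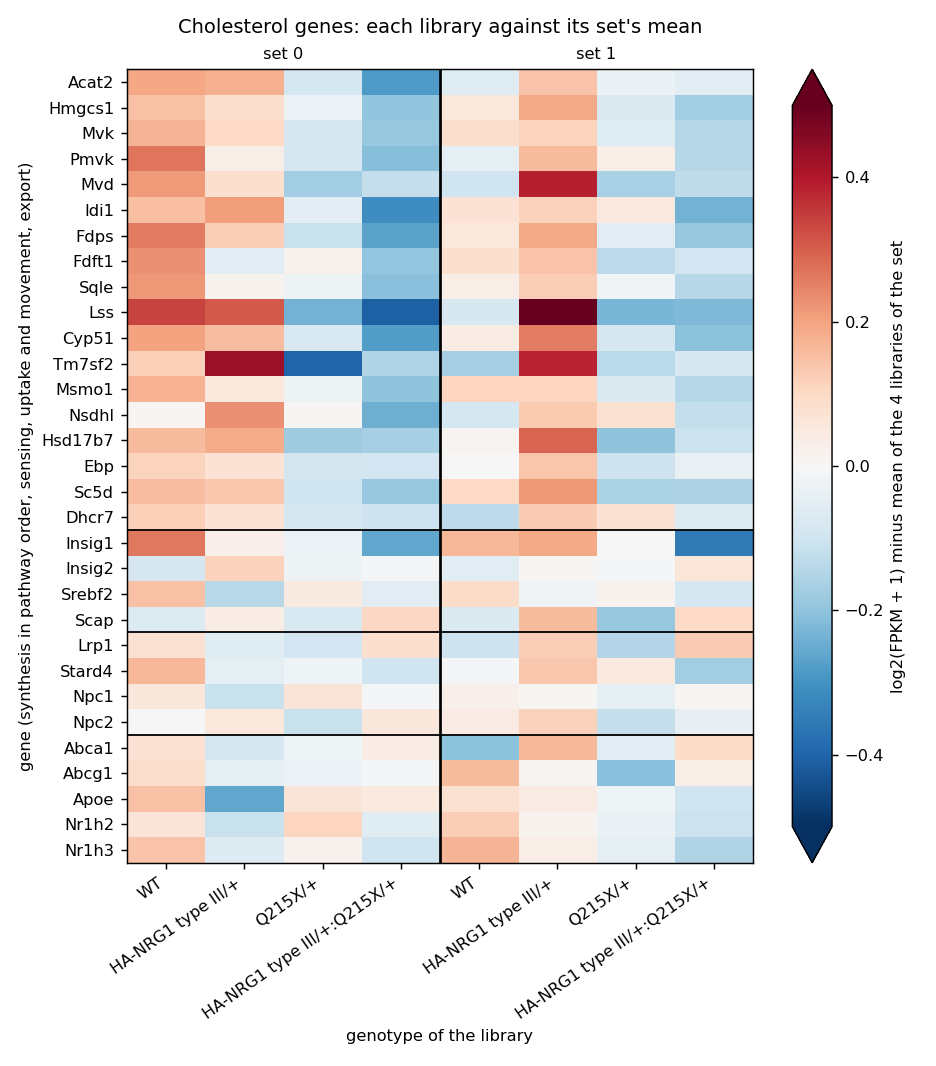
Each library's log2(FPKM + 1) minus the mean of the 4 libraries of its set, for the 31 genes (rows, parted by role) and 8 libraries (columns, parted by set), red above and blue below. The enzymes are blue in most cells of Q215X/+ and the combined genotype, and HA-NRG1 type III/+ of set 1 is the highest of its set for 18 of 18.

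Set against WT, the combined genotype was the one comparison in which members passed a test, and only with the set as a replicate block. Insig1, the feedback sensor at chr5:28071412-28078662, fell by 0.52 on the log2 scale and Idi1 fell by 0.39 in that fit, with limma adjusted p = 0.0341 and 0.0495. Without the block the same differences had SE 0.11 and 0.10 and adjusted p = 0.261 and 0.342. With the block 2 of 31 members were called beside 2.39% of all genes, and without it 0 members beside 0.112%. Insig1 stood at 102.6 and 89.4 FPKM in WT, 83.4 and 79.3 with the mutation alone, 86.6 and 90.9 with the transgene alone, and 71.1 and 61.9 with both. The 2 libraries of the combined genotype were the lowest of all 8, and WT of set 0 was the highest. Both calls ended in the fit with the block when either WT library, either Q215X/+ library or either library of the combined genotype was left out. Insig1 then had adjusted p = 0.0593 to 0.310. Without either library of HA-NRG1 type III/+ the call of Insig1 stayed (0.0448 and 0.0453) and that of Idi1 ended (0.0852 and 0.0861).

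All 18 enzymes had a lower mean in the combined genotype than in WT, with a median of −0.29, and for 13 both libraries lay below both WT libraries, against 16.7% of all genes. Stard4, Nr1h2 and Insig1 lay apart in the same way. Of the members, 7 (6 of them enzymes) were at an unadjusted p under 0.05, beside 913 of all genes, and in the blocked fit 16 members beside 2237 genes. As on the wild-type background, the median rests on the WT libraries, at −0.15 without WT of set 0 and −0.37 without WT of set 1. Both groups read as female.

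The transgene alone set few of the genes apart. In HA-NRG1 type III/+ against WT the enzymes had a median of 0.05 log2 units, with 13 of 18 above 0 and 4 above in both sets, and the sets disagreed, at −0.04 in set 0 and 0.17 in set 1. Set 0 compared male with female and set 1 female with female, so set and sex cannot be told apart there. Without WT of set 1 the median was −0.01 and without WT of set 0 it was 0.12. Both transgenic libraries lay above both WT libraries for Idi1, Tm7sf2, Nsdhl, Insig2 and Scap, against 14.7% of all genes, and below for Srebf2, against 15.7%. limma called 0 of 31 members in both fits, with 0.0638% of all genes called, or 2.11% with the block. The only member at an unadjusted p under 0.05, of 865 genes in all, was Tm7sf2, at a log2 difference of 0.43 (SE 0.14, adjusted p = 0.502). In the blocked fit 5 members and 2194 of all genes were at that level.

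In the mutant nerve, most enzyme means were lower with the transgene, but female was set against male, so sex and transgene cannot be told apart. In the combined genotype against Q215X/+ the enzymes had a median of −0.10, with 14 of 18 below 0 and 11 below in both sets. Over all genes 53.2% lay below 0, and 4157 of 12530 did so in both sets. The median was −0.05 without the set 0 library of the combined genotype. Both its libraries lay below both of Q215X/+ for 9 members (Acat2, Hmgcs1, Idi1, Sqle, Cyp51, Nsdhl, Insig1, Stard4 and Nr1h2), against 15.2% of all genes, and above for Tm7sf2 and Lrp1, against 14.6%. limma called 0 members beside 0.0399% of all genes, or 1.72% with the block, and Idi1 and Insig1 were among the 825 genes with an unadjusted p under 0.05 (5 members and 1968 genes in the blocked fit). Over both backgrounds the transgene left 0 members apart in either direction, where 5.2% of all genes lay apart below and 4.88% above. limma called 0 members there, against 0.99% of all genes and 7.1% with the block, and Tm7sf2 and Insig1 were among 1399 genes with an unadjusted p under 0.05 (6 members and 2917 genes in the blocked fit).

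Whether the mutation's difference varied with background was tested by the interaction. Sex enters this test too, since Q215X/+ read as male in both sets and WT as female. An effect of background and one of sex cannot be told apart in it. limma called 0 of 31 members, beside 0.00798% of all genes in both fits, and 1 member was among 139 genes with an unadjusted p under 0.05 (3 members and 599 genes in the blocked fit). That member was Nsdhl, with a log2 interaction of −0.44 (SE 0.13, adjusted p = 1). The interaction was below 0 for 17 of 18 enzymes, with a median of −0.14, and all 18 share the same 8 libraries. The median was −0.05 in set 0 and −0.26 in set 1, −0.27 without WT of set 0 and −0.09 without WT of set 1.

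Insig1 was the only sensing gene called in any comparison. Insig2, its paralogue, stood at 15.2 ± 1.13 FPKM in WT, 15.7 ± 1.06 with the mutation alone, 16.7 ± 0.04 with the transgene alone and 16.3 ± 1.52 with both. The ratio of Insig1 to Insig2 was 7.15 and 5.60 in WT and 4.67 and 3.56 in the combined genotype, with 4.81 to 5.56 in the other 4 libraries. The lowest ratio of each set was in the combined genotype. Srebf2, which encodes the factor SREBP2 itself, stood at 72.7 ± 8.29 FPKM in WT, 68.3 ± 6.79 with the mutation alone, 63.2 ± 1.64 with the transgene alone and 63.5 ± 6.53 with both.

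Scap, the escort of SREBP2, was higher in each set where the transgene was present. It stood at 37.9 and 33.1 FPKM in WT, 37.6 and 30.5 with the mutation alone, 40.9 and 39.0 with the transgene alone, and 42.8 and 37.4 with both. Each transgenic library was above its counterpart without the transgene, but the groups of the combined genotype and Q215X/+ overlapped, at a log2 difference of 0.24 (SE 0.13, limma adjusted p = 0.956). The ratio of Srebf2 to Scap was 1.94 to 2.09 in the 4 libraries without the transgene and 1.57 to 1.59 in the 4 with it. This ratio was computed after the values had been seen and was not tested.

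**Figure D4:**
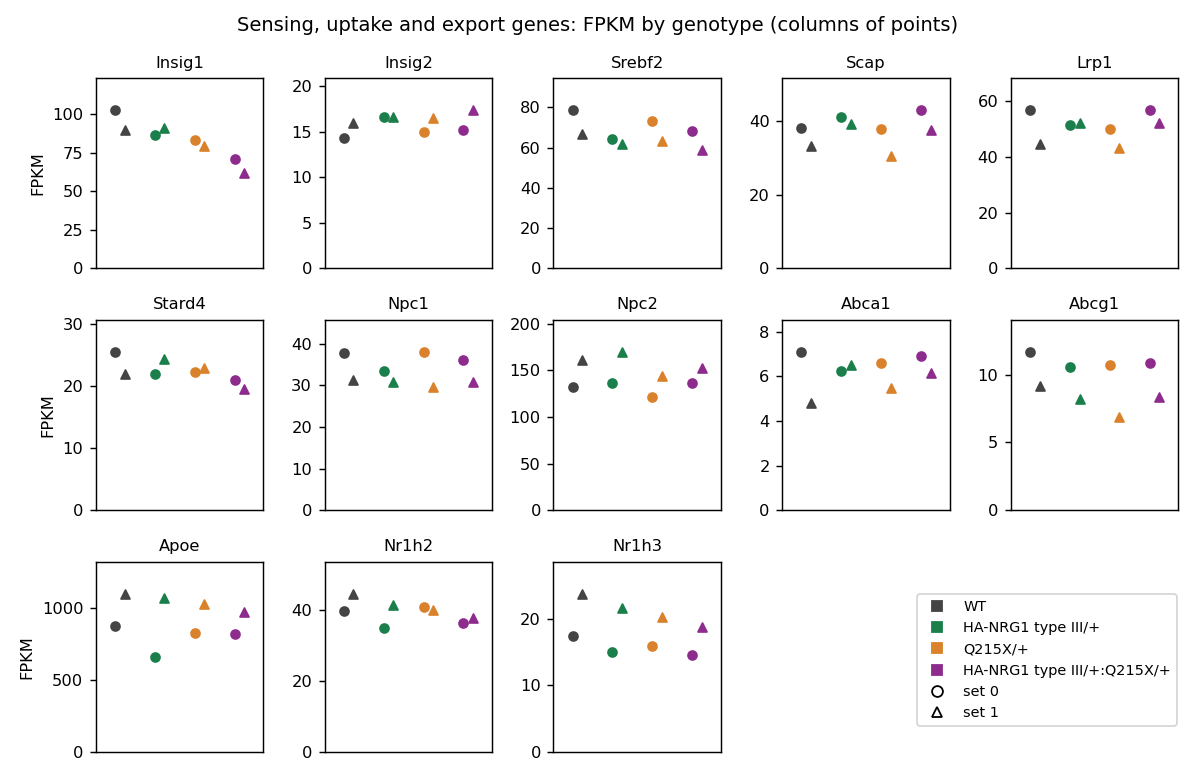
FPKM of the 13 sensing, uptake and export genes, with 1 panel per gene, an axis from 0, and points coloured by genotype with circles for set 0 and triangles for set 1. Insig1 steps down to 71.1 and 61.9 FPKM in the combined genotype, while the points of Apoe, Npc2 and Nr1h3 separate by set.

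No gene of uptake or intracellular movement was called in either fit. Lrp1, a lipoprotein receptor that takes up particles carrying Apoe, stood at 56.6 and 44.5 FPKM in WT, 50.1 and 43.1 with the mutation alone, 51.4 and 52.1 with the transgene alone, and 56.7 and 52.2 with both. The combined genotype lay above Q215X/+ without overlap, at a log2 difference of 0.22 (SE 0.14, limma adjusted p = 0.994), and overlapped WT. Stard4, a carrier of free sterol between membranes on chromosome 18, stood at 25.5 and 22.0 FPKM in WT, 22.2 and 22.9 with the mutation alone, 21.8 and 24.4 with the transgene alone, and 21.0 and 19.5 with both. Its combined genotype was the lowest group and did not overlap the others, with a log2 difference from WT of −0.22 (SE 0.10, limma adjusted p = 0.775).

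The lysosomal pair that hands sterol to the membrane was split by set, like 32.4% of all genes. Npc2, the soluble carrier, stood at 121.6 to 137 FPKM in set 0 and 144 to 170 in set 1, and Npc1, the membrane partner, at 33.5 to 38.1 in set 0 and 29.7 to 31.3 in set 1. The ratio of Npc2 to Npc1 was thus 3.20 to 4.07 in set 0 and 4.85 to 5.50 in set 1, in every genotype. Differences between genotypes in Npc1 had log2 values of −0.09 to 0.05 in the 5 comparisons of 2 genotypes.

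Of the 5 export genes, 3 (Apoe, Nr1h3 and Abcg1) separated fully by set, as did 32.4% of all genes. Apoe stood at 879.5 and 1102.5 FPKM in WT, 831 and 1030.0 with the mutation alone, 665 and 1073.7 with the transgene alone, and 824 and 976 with both. Set 1 was higher in each of the 4 genotypes, and the groups overlapped. Nr1h3, the LXR alpha receptor, stood at 17.4 and 23.8 FPKM in WT, 15.9 and 20.3 with the mutation alone, 15.0 and 21.6 with the transgene alone, and 14.6 and 18.8 with both. The combined genotype was the lowest in each set and WT the highest, with a log2 difference of −0.28 between them (SE 0.24, limma adjusted p = 1, and 0.0802 with the block).

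Nr1h2, the LXR beta receptor, was the more abundant receptor in every library. It stood at 39.8 and 44.7 FPKM in WT, 41.1 and 40.0 with the mutation alone, 35.1 and 41.4 with the transgene alone, and 36.5 and 38.0 with both. The combined genotype lay below WT without overlap, at a log2 difference of −0.18 (SE 0.11, limma adjusted p = 0.922). The exporters did not part by genotype: Abca1 ran from 4.81 to 7.10 FPKM over the 8 libraries, both extremes in WT, and Abcg1 from 6.88 to 11.7, with every set 1 library below every set 0 library.

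Over the 13 members outside synthesis, 6 were below 0 in the combined genotype against HA-NRG1 type III/+, with a median of 0.00, and 11 in Q215X/+ against WT, with a median of −0.09. Whether synthesis and the other roles differ was not tested, since the genes share the same libraries.

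The wider pathway was read from 6 further lists. Of 12 genes of SREBP processing and enzyme degradation, 0 were called in any comparison, and Mbtps2, the site-2 protease, had log2 differences of −0.16 to 0.03 in the 5 comparisons of 2 genotypes. Erlin2, which helps to degrade sterol-regulated proteins, had −0.03 to 0.10. Of the isoprenoid branch, which leaves the pathway at farnesyl diphosphate, 1 of 11 genes was called, and only where a transgenic group was set against one without it. Fntb, a subunit of farnesyltransferase, stood at 63.1 and 68.4 FPKM in WT, 73.3 and 75.0 with the mutation alone, 108.7 and 108.4 with the transgene alone, and 120.5 and 102.4 with both. All 4 transgenic libraries lay above the other 4, and over both backgrounds Fntb rose by a log2 difference of 0.65 (SE 0.08, limma adjusted p = 0.0288), a test that called 0.99% of all genes. It was also called with the block in each of the 3 comparisons that set a transgenic group against one without the transgene (adjusted p = 0.0192 to 0.0415). In Q215X/+ against WT 2 of 11 isoprenoid genes were below 0, with a median of 0.07, where the 18 synthesis enzymes had a median of −0.19. Over all genes 52.4% lay below 0 there.

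In the other 4 lists no gene was called without the block. With the block and over both backgrounds of the transgene, where 7.1% of all genes were called, 1 of 14 esterification and transport genes rose (Stard5, a sterol carrier, log2 difference 0.23) and 1 fell (Gramd1b, which moves sterol from the plasma membrane, −0.24). At the same setting 1 of 11 LXR targets rose (Arl4c, a small GTPase, 0.32), and 2 of 5 tested oxysterol enzymes rose (Cyp46a1 and Ch25h, which hydroxylate cholesterol, 0.44 and 0.42). Of 9 tested lipoprotein receptors and carriers 1 fell (Vldlr, a receptor, −0.28). limma adjusted p for these 6 genes was 0.00942 to 0.0426. In the combined genotype against WT Cyp46a1 rose by 0.81 and Lcat, which esterifies plasma cholesterol, by 0.49 (limma adjusted p = 0.0119 and 0.0399 in the blocked fit). Cyp46a1 stood at 5.13 and 4.13 FPKM in WT, 6.81 and 5.71 with the mutation alone, 6.63 and 6.47 with the transgene alone, and 9.67 and 8.09 with both. Of the LXR targets 9 of 11 were below 0 in Q215X/+ against WT, 4 of them in both sets, beside 52.4% of all genes. Their median was −0.10. In the combined genotype against Q215X/+ 9 of 11 were above 0, 7 of them in both sets, with a median of 0.08. Over all genes 5841 of 12530 lay above 0 there. Sex differed between the groups in both comparisons. For the mutation over both backgrounds, 0 genes of the 6 lists were called in either fit.

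Nerve tissue holds several cell types, and fewer cells of a type and less RNA per cell cannot be told apart in these libraries. Markers of myelinating Schwann cells summed to 25927 to 26445 FPKM in WT, 22951 to 25763 with the mutation alone, 23691 to 25232 with the transgene alone and 21528 to 22497 with both, and Pmp22 made up most of each sum. Over the 10 markers the median differences were −0.02 in Q215X/+ against WT and −0.03 in the combined genotype against HA-NRG1 type III/+, where the enzymes had −0.19 and −0.34. They were −0.24 in HA-NRG1 type III/+ against WT and −0.25 in the combined genotype against Q215X/+, where the enzymes had 0.05 and −0.10.

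Other marker lists lay apart too. In Q215X/+ red blood cell markers summed to 599 to 1279 FPKM against 239 to 244 in WT, and 6 of 6 endothelial markers lay below WT (median −0.23). Macrophage markers, of cells that also express the exporters, summed to 448 to 499 FPKM in WT, 473 to 497 with the mutation alone, 472 to 625 with the transgene alone and 529 to 588 with both. Fibroblast markers summed to 3208 to 3610 FPKM in WT, 3287 to 3483 with the mutation alone, 3855 to 4386 with the transgene alone and 3868 to 4301 with both. Adipocyte markers summed to 378 to 461 FPKM with the transgene alone and 474 to 526 with both alleles, with 5 of 6 higher in the latter (median 0.34), and to 303 to 764 in the other 4 libraries. No marker of these types was listed at 0 in any library other than the muscle gene Ckm in Q215X/+ of set 0, and their part in the differences of the cholesterol genes was not tested.

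**Figure D5:**
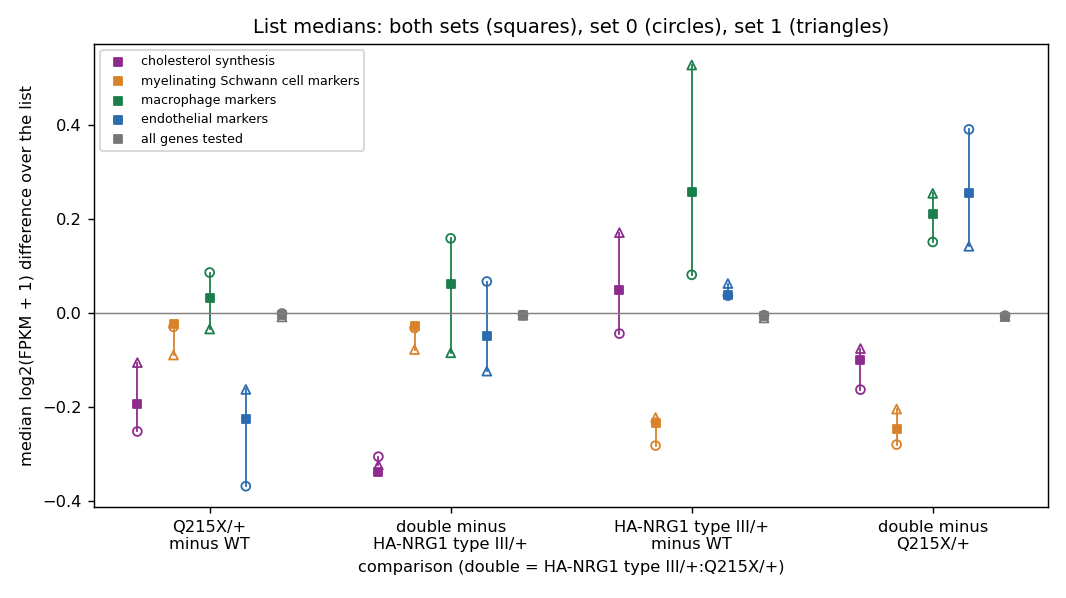
Median log2(FPKM + 1) differences of the enzymes, 3 marker lists and all genes tested in 4 comparisons, with squares for both sets, circles for set 0 and triangles for set 1. The enzymes lie at −0.19 and −0.34 in the comparisons that add the mutation, where endothelial markers are at −0.23 and −0.05, and myelinating Schwann cell markers lie at −0.24 and −0.25 in those that add the transgene.

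Genes on the opposite strand share exons with some members in the GENCODE annotation, and the sources do not state how strand was handled. The largest such share was 18.3% of the exonic bases of Fdft1, with the protease gene Ctsb. Shares were 13.2% for Scap, 12.1% for Hmgcs1 and 9.22% for Idi1. For these genes, reads of the partner cannot be told apart from their own in the shared bases. On the same strand, 26.7% of the exonic bases of Fdps are shared with Gm43738 and 12.1% of those of Tm7sf2 with Vps51, so their values are uncertain in the same way.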

How the data were processed

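RNA of 8 mouse sciatic nerve libraries, 4 genotypes with 2 libraries each, was read from 1 deposited table of FPKM values, normalized by the authors to gene length and library size. The submitters' processing notes list TopHat2 2.0.9, Cufflinks 2.2.0 and build mm10, without saying which step each served. Annotation, strand handling and filters were not stated there. Each line held an empty field after the symbol that the header lacks, so values were taken from one field further on. Column names gave the genotypes, and the abbreviated stem hani was assigned to HA-NRG1 type III/+, the genotype that no other stem named. Column endings 0 and 1 (sets) are tied to no replicate number by the labels.

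Tests used limma 3.58.1 in R 4.3.3 on log2(FPKM + 1) with a trend, 4 group means and 4 residual degrees of freedom, two-sided, over the 12530 genes whose mean reached 1 FPKM. Benjamini-Hochberg adjustment ran over all of them, and genes were called at an adjusted p under 0.05. On this scale the change of low genes is understated. Without counts the depth is unknown: at most 25.4% of low values in a library stood at a common ratio to those of WT set 0. An exact permutation test of 2 against 2 cannot go below p = 0.333 and was not used. The set 1 minus set 0 differences of the genotypes correlated across genes by 0.118 to 0.304 in all 6 pairs of genotypes, so the sets were also fitted as a replicate block, which leaves 3 residual degrees of freedom. This pairing rests on the correlations, since no label gives it. Alternatives were that block, a pseudocount of 0.1, no filter, median ratio rescaling and leaving out each library. Leaving out libraries with the block was added after seeing the data. Calls were tested on simulated data with shifts larger than any difference of the members, so that test does not speak for differences of their size.

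The members and lists were chosen with earlier results of these data known. Values of all libraries are given for members called in any comparison with or without the block, and for the members with the smallest p in each role (4 enzymes, 2 elsewhere). The remaining members are given by group values and ranges, and other values in the text were picked after seeing them. Of the 6 further pathway lists, called genes are named. Gene positions and promoters are RefSeq's, for GRCm38.p6, and exon overlaps were counted in GENCODE for the same build.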

Additional observations from a re-analysis of the deposited data

How the results depend on the processing

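The fit without the block called 0 members in every comparison, so there was no call of a member to reverse under the alternatives. Members called in the combined genotype against WT numbered 0 without the replicate block and 2 with the replicate block, and in the other comparisons the block called 0 members. With the block and 1 library left out that count ran from 0 to 1. The enzymes' median in the combined genotype against HA-NRG1 type III/+ ran from −0.36 to −0.29 when single libraries were left out. The other counts of members called stayed at 0. When single libraries were left out, the enzymes' median in Q215X/+ against WT ran from −0.29 to −0.09. In the combined genotype against WT it ran from −0.37 to −0.15. Medians near 0 crossed it: −0.01 to 0.12 in HA-NRG1 type III/+ against WT and −0.06 to 0.02 for the transgene over both backgrounds. Genes called over the whole table depend on the block: 8 and 265 in HA-NRG1 type III/+ against WT, 5 and 216 in the combined genotype against Q215X/+, 14 and 299 against WT, 124 and 890 for the transgene over both backgrounds. Rescaling by median ratios gave an enzyme median of −0.33 in the combined genotype against HA-NRG1 type III/+ and −0.19 in Q215X/+ against WT, with 18 and 16 of 18 enzymes below 0. With 2 libraries per genotype and unknown depth, small differences were not resolvable.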
